A study of Homo sapiens with 6 samples.

Results

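The CCT chaperonin, also called TRiC, is a folding machine of the cytosol built from 8 related subunits, each the product of its own gene: TCP1, CCT2, CCT3, CCT4, CCT5, CCT6A, CCT7 and CCT8. The genes were taken by symbol from a table of 60606 genes, in which each symbol occurs once, and all 8 passed the filter that left 14140 genes for testing. The table holds RNA sequencing of MDA-MB-231 xenograft tumors, MDA-MB-231 being a human breast cancer cell line, grown from wild-type cells injected with Matrigel under the skin of the left flank of NSG mice. These mice lack T, B and natural killer cells but keep their own myeloid cells, vessels, fibroblasts and muscle. In the irradiated group, 3 tumors that had grown to some 800 mm3 were each exposed locally to X-rays, 10 Gy in one dose, and were taken after 3 days. In the control group 3 tumors of the same cells and host were not irradiated. For the controls no volume or collection time is given in the labels, so a difference in size or time cannot be told apart from irradiation. The comparison asks which transcripts of the tumor differ 3 days after the dose.

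Each chaperonin particle is a pair of stacked rings, and every ring holds each subunit once, at a fixed place. Unfolded proteins enter the cavity, the rings close on them as ATP is split, and the folded protein is released. Actin and tubulin cannot reach their native form without it, and many proteins with WD40 propellers, among them CDC20 and the G-protein beta subunits, are also clients. Prefoldin and HSP70 hand clients over to it, phosducin-like proteins act with it as cofactors, and its genes are known as targets of heat shock factor 1 and are highly expressed in growing cells.

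Of the 8 subunits, CCT6A alone passed the test, and it has close pseudogenes, so the sequences that tell them apart are shown first. CCT6A lies on chromosome 7 and was compared with CCT6P1, an expressed pseudogene on the same chromosome. Over 1536 aligned bases of the 1596 coding bases of CCT6A the copies were identical at 94.9%. Printed here is the 90-base stretch, within the first exon of each annotated transcript, that holds the most differences. It lies at chr7:56051891-56051980 in CCT6A and at chr7:65751184-65751273 in CCT6P1, both on the plus strand of GRCh38, and the capitals mark the 9 bases that differ.
CCT6A: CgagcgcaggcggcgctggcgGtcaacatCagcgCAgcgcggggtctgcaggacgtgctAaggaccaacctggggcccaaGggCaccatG
CCT6P1: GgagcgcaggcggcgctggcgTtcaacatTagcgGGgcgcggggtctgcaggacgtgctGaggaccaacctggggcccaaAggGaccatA

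How reads shared between copies were assigned is not given in the sources used here. Of all 50-base windows in the coding sequence, 9.83% in CCT6A, 11.8% in TCP1, 11.2% in CCT5 and 10.5% in CCT8 also occur in transcripts of another gene, all of them pseudogenes of the subunit for CCT6A and CCT8, against 0 of the windows in CCT2, CCT3, CCT4 and CCT7. CCT6P1 was listed at 3.63, 3.89 and 1.62 TPM in the irradiated tumors, against 4.61, 5.15 and 5.67 TPM in the controls. TPM is a share of the library's transcripts scaled for gene length, so it keeps no depth and the number of reads behind a value is unknown. Of 14 pseudogene rows of the subunits, 5 were at 0 in all 6 tumors, and for no subunit did they add up to more than 3.87% of its level. With their TPM added to the parent gene, all 8 fold changes stayed on their side of the threshold.

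The levels of all 8 subunits averaged lower in irradiated than in control tumors, by 15.1% for CCT7 to 40.0% for CCT6A, and all 8 fold changes were below 0, as were 55.7% of those of all tested genes. Irradiated and control values did not overlap in 6 of the 8, TCP1, CCT2, CCT4, CCT5, CCT6A and CCT8, where irradiated tumors were lower in 15.0% of all tested genes. CCT6A fell, the only one of 8 to pass an adjusted p of 0.05, a threshold that 1.61% of all tested genes passed in that direction, 1.37% in the other and 2.98% in either. Their log2 fold changes, irradiated minus control on log2(TPM + 1), had a median of -0.56, where the median of all tested genes was -0.056. In bulk tumor RNA, fewer cancer cells, less RNA per cell and a change in reads from host cells cannot be told apart. How mouse reads were handled is not given in the sources used here. The labels do not say that tumors came from separate animals, so the p-values reflect the spread among these 6 samples, which may be technical.

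**Figure D1:**
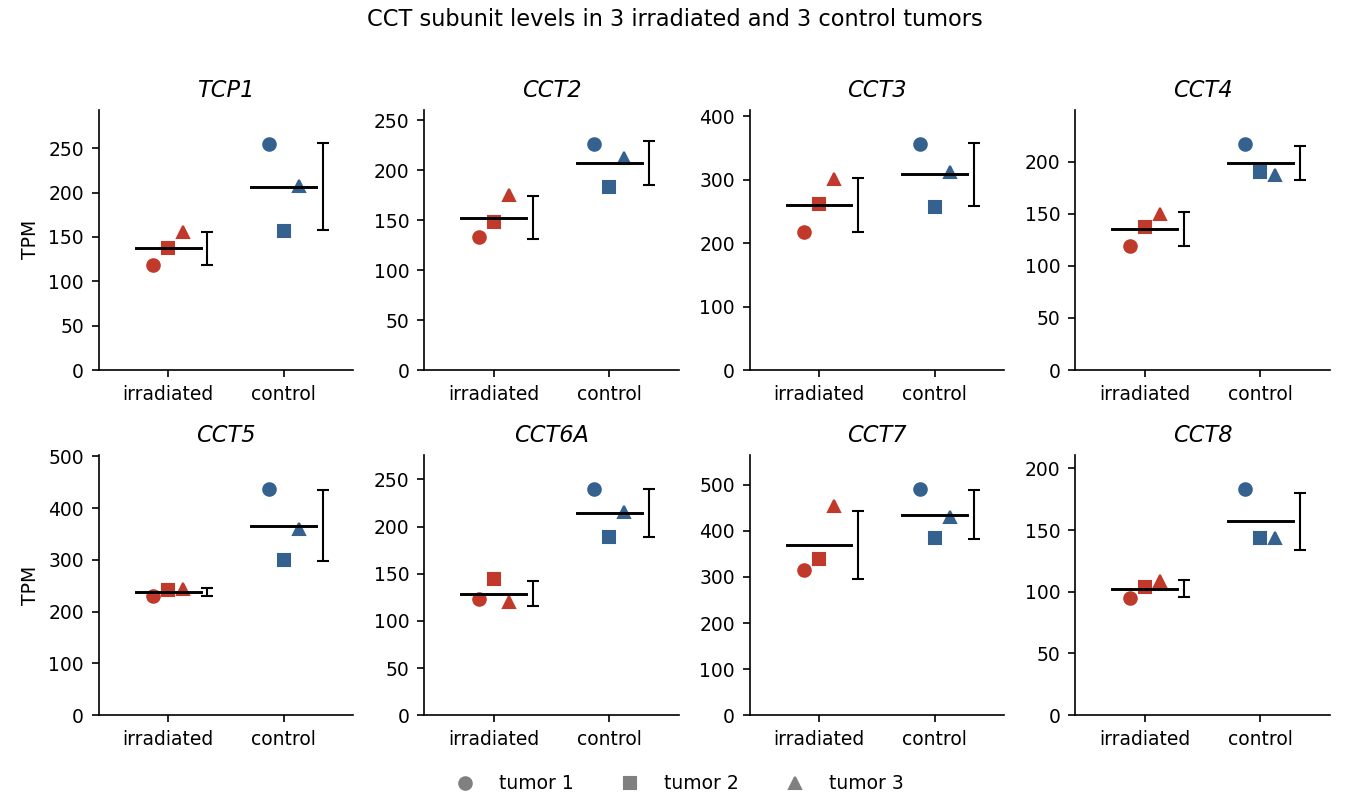
Level of each CCT subunit in TPM (y axis, from 0, scaled per gene) in 3 irradiated (red, left) and 3 control tumors (blue, right); horizontal lines are means, bars at the side are SD, and the symbol gives the tumor number. Only CCT3 and CCT7 have irradiated values, up to 301 and 454 TPM, within the range of the controls.

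CCT6A encodes the zeta subunit. It was at 122.9, 144 and 119.7 TPM in irradiated tumors, against 240.0, 189 and 215 TPM in controls. All 3 irradiated tumors lay below the lowest control, and the means were 129 ± 13.2 TPM in irradiated and 215 ± 25.4 TPM in control tumors (SD, n = 3 each). The log2 fold change was -0.73 with a standard error of 0.14 (limma adjusted p = 0.0358). The call held when control tumor 2 was left out (limma adjusted p = 0.0268) and was lost when any other tumor was, with an adjusted p from 0.0712 without irradiated tumor 2, where 0.800% of tested genes fell, to 0.139 without irradiated tumor 1, where 0.475% fell. It was lost also without a trend in the variance (adjusted p = 0.0836, where 1.00% of tested genes fell) and with no filter on low values (0.0912, where 0.213% fell).

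CCT8, CCT4 and CCT5 came next in order of p, and none of them passed. CCT8, the theta subunit, was at 95, 104 and 109 TPM in irradiated tumors, against 183, 144 and 144 TPM in controls (log2 fold change -0.60, 95% interval -0.93 to -0.27, limma adjusted p = 0.0672). CCT5, the epsilon subunit, was at 230.0, 242 and 244 TPM in irradiated tumors, against 437.5, 301 and 359 TPM in controls (-0.60, 95% interval -0.95 to -0.25, limma adjusted p = 0.0799). In both genes the irradiated tumors lay close together and the controls were spread, with an SD of 7.43 TPM in irradiated and 68.7 TPM in control tumors for CCT5. CCT4, the delta subunit, was at 119, 137 and 150.2 TPM in irradiated tumors, against 217, 191 and 188 TPM in controls (-0.55, 95% interval -0.87 to -0.23, limma adjusted p = 0.0755). The intervals of these 3 genes lie below 0 before adjustment for 14140 tests. In 6 of the 8 subunits the unadjusted p was under 0.05, as it was in the same direction for 11.5% of all tested genes.

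TCP1, the alpha subunit, was at 118, 137.5 and 155 TPM in irradiated tumors, against 255, 157 and 208 TPM in controls. The highest irradiated tumor and the lowest control nearly met, and the log2 fold change of -0.57 did not pass (95% interval -1.02 to -0.12, limma adjusted p = 0.151). CCT2, the beta subunit, was at 133, 148 and 176 TPM in irradiated tumors, against 227, 184 and 212 TPM in controls (-0.45, 95% interval -0.79 to -0.11, limma adjusted p = 0.143). Control tumor 2 was the lowest control in TCP1, CCT2, CCT3, CCT5, CCT6A, CCT7 and CCT8. With it left out TCP1 and CCT5 passed with CCT6A (adjusted p = 0.0484 for TCP1 and 0.0304 for CCT5), and 3.95% of all tested genes fell. With weights estimated for each tumor, 5 of the 8 subunits fell, TCP1, CCT4, CCT5, CCT6A and CCT8, where 4.51% of all tested genes did.

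CCT3 and CCT7, the gamma and eta subunits, differed least. CCT3 was at 217, 261 and 301 TPM in irradiated tumors, against 356.5, 257 and 311 TPM in controls. CCT7 was at 316, 339 and 454 TPM in irradiated tumors, against 491, 385 and 429.8 TPM in controls. In each gene irradiated tumor 3 was high and control tumor 2 low, so the groups overlapped. Their log2 fold changes were -0.24 (95% interval -0.64 to 0.15, limma adjusted p = 0.461) and -0.25 (95% interval -0.63 to 0.14, limma adjusted p = 0.448), intervals that hold 0 as well as the fold change of CCT8.

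Some subunit genes share exonic sequence with a neighbour on the opposite strand, and whether the counting used strand is not given in the sources used here. TCP1 (chr6:159778498-159789749 in GRCh38) overlaps ACAT2, an enzyme of acetoacetyl-CoA synthesis, over 397 exonic bases. ACAT2 was at 57.1, 59.6 and 60.4 TPM in irradiated tumors, against 107, 81.8 and 105 TPM in controls (log2 fold change -0.71, limma adjusted p = 0.0433). CCT4 (chr2:61868089-61888804) shares 81 exonic bases with COMMD1, at 45.5, 44.3 and 39.0 TPM in irradiated tumors and 69.8, 64.7 and 109.95 TPM in controls (limma adjusted p = 0.0681). In both pairs the genes lay lower in irradiated tumors, and without strand their reads in the overlap cannot be told apart. CCT5 shares 1757 exonic bases with an antisense gene at 0.1 TPM or less in every tumor, and CCT4 275 with one at 0.53 TPM or less. The annotation shows no exonic overlap for CCT2, CCT3, CCT6A, CCT7 or CCT8.

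Summed over the complex, the subunits reached 1351, 1513 and 1709 TPM in irradiated tumors, against 2408, 1807 and 2067 TPM in controls. The mean sum was 1524 ± 179 TPM in irradiated and 2094 ± 302 TPM in control tumors (SD, n = 3 each), 27.2% lower. This sum is given without a test, since the subunits were chosen with earlier results of these data known. Only RNA was measured, so the amounts of subunit protein and of assembled particles are not known. Because every particle needs all 8 subunits, the balance between their transcripts was also examined. It was not even in any tumor, the most abundant subunit standing 3.26 to 4.18 times above the least abundant in irradiated tumors and 2.68 to 2.99 times in controls. CCT7 was the highest and CCT8 the lowest in each of the 6 tumors.

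The order in between was not the same in the groups. In irradiated tumors CCT7 was followed by CCT3 and CCT5, whose ranges overlapped, then by CCT2, TCP1, CCT4 and CCT6A, each overlapping its neighbour, and by CCT8 below them. In controls CCT7, CCT5 and CCT3 formed an overlapping upper set, followed by CCT6A, CCT2, TCP1 and CCT4, again overlapping their neighbours, and by CCT8. CCT5 stood above CCT3 in all 3 controls and in irradiated tumor 1.

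Shares of the sum moved in opposite directions for 3 subunits. CCT7 made up 22.4% to 26.6% of summed CCT transcripts in irradiated tumors and 20.4% to 21.3% in controls, and CCT3 16.1% to 17.6% in irradiated tumors and 14.2% to 15.1% in controls. CCT6A made up 9.10%, 9.51% and 7.0% in irradiated tumors, against 9.97%, 10.5% and 10.4% in controls. For these 3 the shares of the groups did not overlap, and for the other 5 they did. CCT2 kept nearly the same share, 9.98% ± 0.27 in irradiated and 9.95% ± 0.47 in control tumors (SD, n = 3 each). A share of a sum rises for one subunit when the others are lower, and these differences were not tested.

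**Figure D2:**
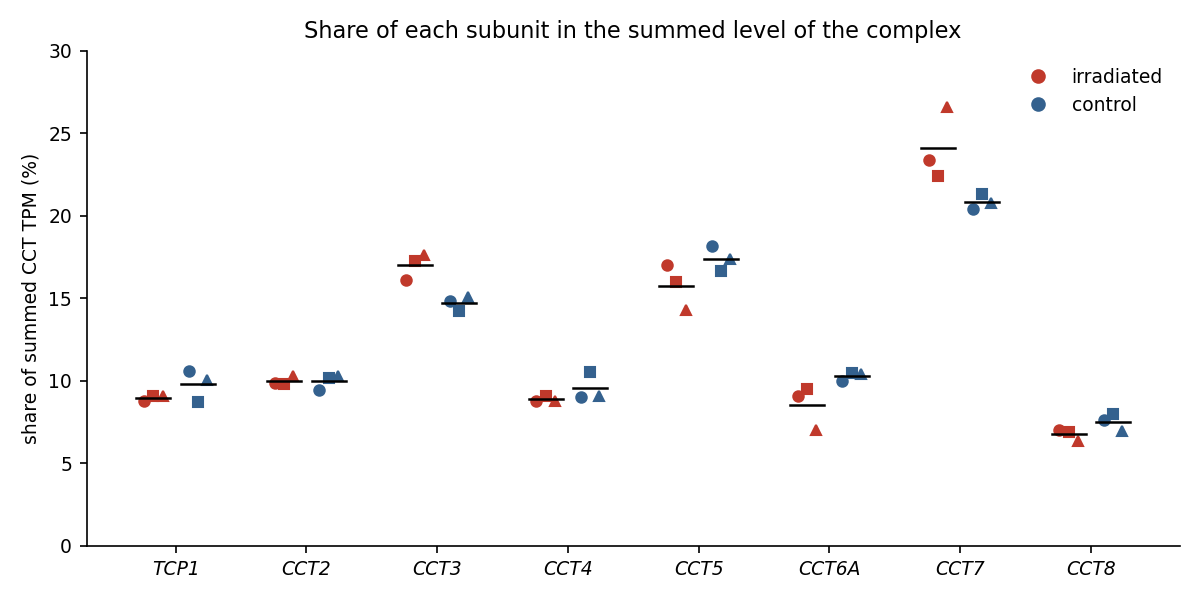
Share of each subunit in the summed TPM of the 8 subunits (y axis, percent) in 3 irradiated (red, left of each pair) and 3 control tumors (blue, right), with lines at the means and circle, square and triangle for tumors 1, 2 and 3. CCT3 and CCT7 lie higher and CCT6A lower in irradiated tumors with no overlap, and the low CCT6A point of 7.0% is irradiated tumor 3.

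The subunits also varied together between tumors. Over the 6 tumors the 28 pairwise Pearson correlations of log2(TPM + 1) ran from 0.56, for CCT6A with CCT7, to 0.98, for CCT4 with CCT8, with a median of 0.91. After the group means were taken out they ran from 0.16, again CCT6A with CCT7, to 0.98, for CCT2 with CCT3, with a median of 0.81. All 28 were above 0 in each case. The 6 points share their libraries and the scaling of TPM, so these values only describe the tumors. Pairs of other genes were not set beside them. Of 5021 other genes that averaged 20 TPM or more, NUTM2A-AS1, a long noncoding RNA, followed the mean profile of the complex most closely (r = 0.9998 over 6 tumors). PSMD2, a subunit of the proteasome's regulatory particle, came next (r = 0.994), then FH, the fumarase of the citric acid cycle (r = 0.993), ZNF511 (r = 0.991) and DFFA, the inhibitor of a caspase-activated DNase (r = 0.991). These were picked as the highest of 5021 correlations over 6 points, so values near 1 do not show a link to the complex. PSMD2 was at 307, 360.3 and 426 TPM in irradiated tumors, against 637, 462 and 543 TPM in controls, and none of these 5 genes passed the test (limma adjusted p of 0.0623 to 0.172).

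Genes that work with the chaperonin were examined from lists of textbook knowledge. Of 6 prefoldin subunits, which carry nascent actin and tubulin to the chaperonin, 0 passed the test in limma, and 2 had an unadjusted p under 0.05. Both of these were lower, as were 11.5% of all tested genes at that threshold. The median log2 fold change of the 6 was -0.11. VBP1 was at 23.4, 23.0 and 21.8 TPM in irradiated tumors, against 35.4, 35.2 and 25.3 TPM in controls, and did not pass (-0.46, limma adjusted p = 0.180), while PFDN2 (-0.26), PFDN1 (-0.12) and PFDN6 (-0.09) were nearer to 0. Of 3 tested phosducin-like cofactors 0 passed, with 0 at an unadjusted p under 0.05. TXNDC9 had a log2 fold change of -0.37, PDCL3 of -0.07 and PDCL of 0.0012. Of the prefoldin-like complex, which assembles RNA polymerases and other large complexes, 0 of 7 tested genes passed in limma and 0 had an unadjusted p under 0.05, with log2 fold changes from -0.37 for RPAP3 to 0.18 for UXT, and values of -0.23 for RUVBL2 and -0.22 for URI1.

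The relatives of the subunits outside the common complex lay below the subunits, from 0 TPM for CCT8L2 to as much as 19.3 TPM for MKKS. CCT6B, a paralog known from testis, was at 0.85, 0.41 and 0.21 TPM in irradiated tumors and 0.59, 0.28 and 0.57 TPM in controls, too low for the test, and CCT8L2 was listed at 0 in all 6. The chaperonin-like genes of the BBSome pathway, BBS10, BBS12 and MKKS, had log2 fold changes of 0.46, 0.36 and 0.04, and 0 of the 3 passed (limma adjusted p of 0.403 for BBS10) or had an unadjusted p under 0.05.

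Among the clients, 3 of 6 actin genes fell, ACTG1, ACTA2 and ACTG2, while 0 of 12 tubulins passed. Over all tested genes 1.61% fell. ACTG1, cytoplasmic gamma-actin, was at 2067, 1957 and 2890.3 TPM in irradiated tumors, against 4080.4, 3669.9 and 4042 TPM in controls (log2 fold change -0.79, limma adjusted p = 0.0447). All 3 irradiated tumors lay below all controls, yet the call was lost when irradiated tumor 1 or 2 or control tumor 1 or 3 was left out (limma adjusted p up to 0.165), and in 6 of 12 other settings. ACTB, cytoplasmic beta-actin, was at 3851, 4427 and 4126 TPM in irradiated tumors, against 5809, 4562 and 5573 TPM in controls, and did not pass (-0.36, limma adjusted p = 0.187).

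The other 4 actins belong to muscle and to contractile stroma. ACTA2, smooth-muscle actin, was at 32.0, 45.5 and 75.5 TPM in irradiated tumors, against 176, 150.6 and 218 TPM in controls (-1.88, limma adjusted p = 0.0174), and its call was lost when irradiated tumor 2 or control tumor 1 or 3 was left out (adjusted p up to 0.0718), and with no filter on low values (0.0840). ACTG2, enteric smooth-muscle actin, was at 1.43, 4.27 and 3.45 TPM in irradiated tumors, against 17.03, 19.2 and 23.9 TPM in controls, and fell by 2.44 on the log2 scale (limma adjusted p = 0.00691). That call held with each tumor left out and in 12 of 12 other settings (limma adjusted p up to 0.0485). ACTA1, the actin of skeletal muscle, was at 0.73, 41.0 and 0.43 TPM in irradiated tumors, against 53.7, 82.0 and 165 TPM in controls, and it did not pass (limma adjusted p = 0.0907), nor did ACTC1 (0.0972). The 12 skeletal muscle markers summed to 0.24, 62.5 and 1.5 TPM in irradiated tumors, against 92.4, 116 and 246 TPM in controls. MB was at 0 in 5 of the 6 tumors. Of the 10 tested 3 fell, against 1.61% of all tested genes. The 9 fibroblast markers summed to 133, 215 and 154 TPM in irradiated tumors, against 477, 532 and 1005 TPM in controls. Of the 6 tested 3 fell, against the same 1.61%. Those 3 are the collagens COL1A1, COL1A2 and COL3A1, which make up most of the sum. PDGFRB (0.95), DCN (-0.08) and FAP (-0.995) did not pass (limma adjusted p = 0.211 for PDGFRB), and LUM, PDGFRA and THY1 were at 0.39 TPM or less. The part of these tissues in the muscle and smooth-muscle actins was not tested. Actin genes share much of their coding sequence and have many pseudogenes, so their single values are uncertain.

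Of 12 tested tubulin genes 0 passed in limma, and 2 had an unadjusted p under 0.05, TUBB4A and TUBB2B, both higher in irradiated tumors. The share of all tested genes that were higher at that threshold was not taken. TUBB4A was at 6.81, 5.85 and 7.18 TPM in irradiated tumors, against 2.76, 3.56 and 3.41 TPM in controls (log2 fold change 0.84, limma adjusted p = 0.0629). The most abundant of them, TUBA1B, was at 1394, 1465 and 1793 TPM in irradiated tumors, against 2258, 1217.5 and 2084 TPM in controls, so that control tumor 2 was the lowest of all 6. TUBB (-0.32), TUBA4A (-0.34) and TUBB2B (0.83) did not pass. Tubulin genes too share sequence with each other, and their values are uncertain for that reason. Of 7 tested rows of tubulin folding cofactors, which take over tubulin after the chaperonin, 0 passed. At an unadjusted p under 0.05, 11.5% of all tested genes were lower, and so was 1 of these 7. That was TBCD, at 40.3, 37.7 and 42.9 TPM in irradiated tumors, against 57.8, 57.2 and 58.9 TPM in controls (-0.52, limma adjusted p = 0.0743), and TBCC and ARL2 had log2 fold changes of 0.31 and 0.22. The list has 6 genes, as TBCE occurs under 2 identifiers, with log2 fold changes of -0.22 and -0.07.

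Of 11 tested WD40 and other clients 0 passed in limma, and 0 had an unadjusted p under 0.05. The G-protein beta subunits GNB1 (-0.36), GNB5 (-0.27) and GNB4 (-0.31) and the mitotic kinase PLK1 (-0.40) had the smallest p among them, and the list's median log2 fold change was -0.13. CDC20, the activator of the anaphase-promoting complex, was at 86.2, 85.0 and 112 TPM in irradiated tumors, against 125, 74.3 and 111 TPM in controls, with overlapping groups.

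**Figure D3:**
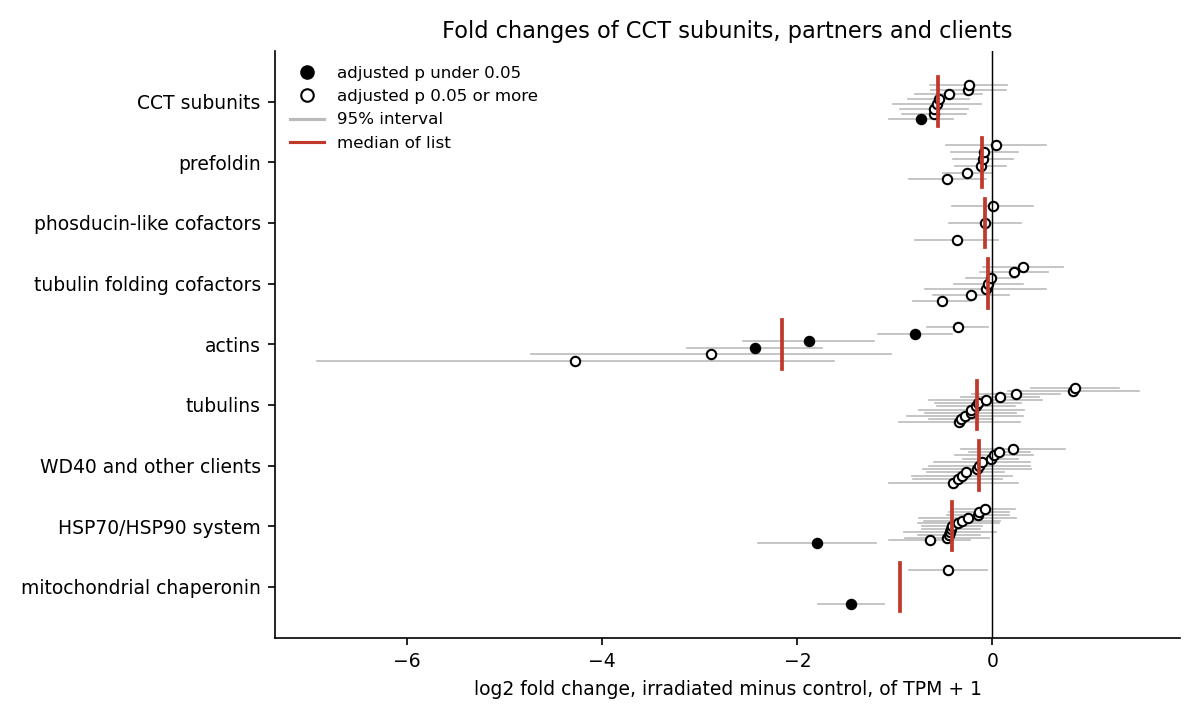
Log2 fold change of TPM + 1, irradiated minus control (x axis), of each tested gene (circles) with its 95% interval (grey), by list (y axis); filled circles passed an adjusted p of 0.05 and red lines are list medians. The CCT subunits lie around their median of -0.56. The medians of prefoldin, cofactors, tubulins and WD40 clients lie nearer to 0, though the tubulins TUBB4A (0.84) and TUBB2B (0.83) lie far above it. The lowest actins are those of muscle and stroma.

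Other chaperones of the cytosol lay lower with the chaperonin. In all 13 genes of the HSP70 and HSP90 system the fold change was below 0, as it was in 55.7% of all tested genes. The median of the 13 was -0.41, and 1 of them fell, HSPA1A, where 1.61% of all tested genes did. HSPA1A, an inducible HSP70, was at 0.96, 1.65 and 0.97 TPM in irradiated tumors, against 6.70, 8.62 and 4.82 TPM in controls (limma adjusted p = 0.0154, log2 fold change -1.80). This call was lost when irradiated tumor 1 or 3 or control tumor 1 was left out (adjusted p up to 0.0664), and with no filter on low values (0.0731). It is a near-identical copy of HSPA1B, at 328, 280.1 and 223 TPM in irradiated tumors and 372, 456 and 317 TPM in controls, so the split of reads between them is uncertain. HSP90AB1, the constitutive cytosolic HSP90, was at 759, 889 and 895 TPM in irradiated tumors, against 1161, 1022 and 1232 TPM in controls, without overlap, and did not pass (-0.42, limma adjusted p = 0.119).

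The mitochondrial chaperonin is the bacterial-type relative of CCT. Its ring protein HSPD1 was at 183, 183 and 228.5 TPM in irradiated tumors, against 332, 223 and 266 TPM in controls, and did not pass (-0.45, limma adjusted p = 0.193). Its lid HSPE1 was at 168, 151.0 and 143 TPM in irradiated tumors, against 474, 449.8 and 353 TPM in controls, and fell by 1.45 on the log2 scale (limma adjusted p = 0.00255). The call held with each tumor left out and in 12 of 12 other settings (limma adjusted p up to 0.0231). HSPE1 shares exons with a read-through gene, so the split of reads between them is uncertain. The heat shock factors HSF1 and HSF2 had log2 fold changes of 0.13 and -0.21, and neither passed (limma adjusted p = 0.621 for HSF1) or had an unadjusted p under 0.05. HSF1, the main activator of heat-shock genes, was at 91.1, 88.0 and 105 TPM in irradiated tumors, against 90.4, 81.5 and 87.7 TPM in controls.

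Heat shock factor 1 is known to act on these genes. The 250 bases before each start site were searched on both strands for GAANNTTC or TTCNNGAA, letters used here for the heat shock element. RefSeq (GRCh38.p14) gave 9 start sites for 7 of the 8 genes, with no entry for CCT6A. The element was found before 2 of the 9 start sites, in TCP1 and CCT2, against 11.6% of 35116 promoters of the same length. Each site is given with the element in capitals, at chr6:159789815-159789844 on the minus strand for TCP1 and at chr12:69585789-69585818 on the plus strand for CCT2.
TCP1: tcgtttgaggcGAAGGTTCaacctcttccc
CCT2: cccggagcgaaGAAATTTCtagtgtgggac
The element lies at -231 to -224 from the start site in TCP1 and at -89 to -82 from one start site of CCT2. Each printed stretch lies wholly in bases annotated as exon in GENCODE 29. That of TCP1 lies upstream of TCP1 as annotated there, so the exon is one of another gene. That of CCT2 lies inside the gene, downstream of its other start site. Of the other motifs, CCAAT was found in TCP1, CCT2, CCT3 and CCT8 (4 of 9 start sites, 32.0% of all promoters), GGGCGG in the same 4 genes (5 of 9, 42.6%), the NRF1 motif in CCT3 and CCT5 (2 of 9, 5.07%) and CCGGAAG, an ETS site, in CCT2 (1 of 9, 8.52%). The E-box CACGTG (6.34%) and the ZNF143 motif (0.934%) were found at 0 of 9. On the log2 scale TCP1 and CCT2, which hold a match to these letters, had fold changes of -0.57 and -0.45. Those of the 5 other searched genes ran from -0.60 to -0.24. CCT6A could not be searched, and the part of the element in the levels was not tested. These matches describe letters in a window and do not show binding.

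Across the tumors, the summed transcripts of the subunits were set beside those of proliferation markers and of the library as a whole. The 12 proliferation markers summed to 759, 846 and 839 TPM in irradiated tumors, against 1248, 778 and 1158 TPM in controls. All 12 fold changes were below 0, as were 55.7% of those of all tested genes. The median of the 12 was -0.37, where that of all tested genes was -0.056. Where 11.5% of all tested genes were lower at an unadjusted p under 0.05, 2 of the 12 markers were, and 0 passed in limma. Among them MKI67 was at 13.4, 18.2 and 19.4 TPM in irradiated tumors, against 47.6, 19.0 and 39.8 TPM in controls (limma adjusted p = 0.154). Control tumor 2 lay among the irradiated tumors by the sum of its proliferation markers and by MKI67. Its TOP2A, at 65.7 TPM, and CDK1, at 63.7 TPM, were above all irradiated tumors. It was the lowest control by the sum of these markers and also by CCT sum, at 1807 TPM. The highest irradiated CCT sum was 1709 TPM. Irradiated tumor 3 had the highest CCT sum of its group and a middle sum of proliferation markers, 839 TPM beside a highest of 846 TPM. The part of cell division in the CCT levels was not tested.

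**Figure D4:**
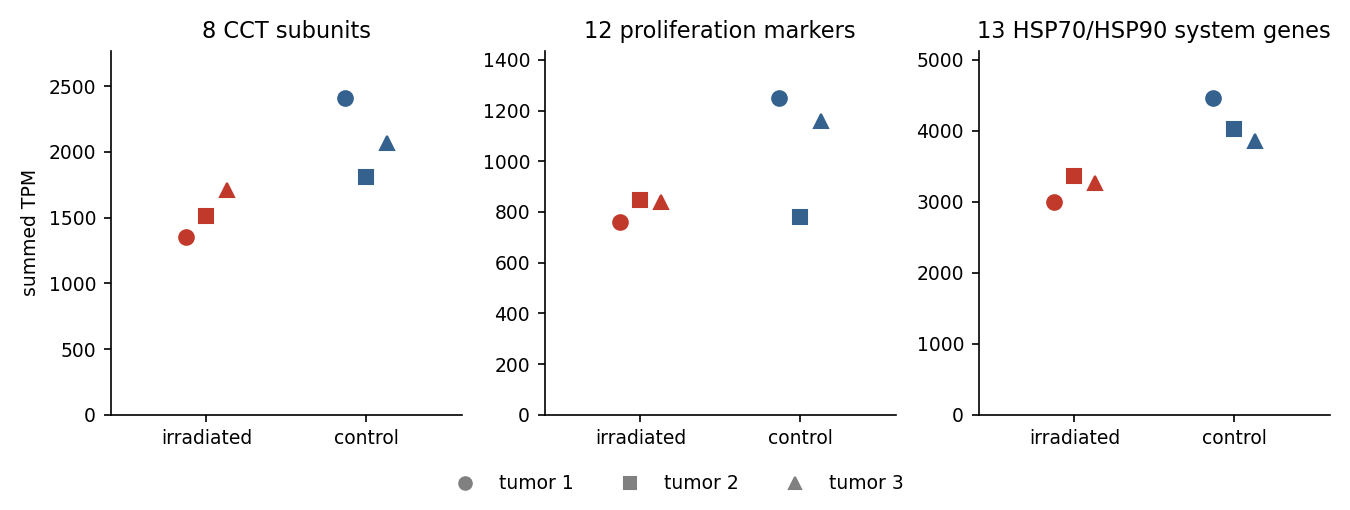
Summed TPM (y axis, from 0, scaled per panel) of the 8 CCT subunits, of 12 proliferation markers and of 13 genes of the HSP70 and HSP90 system in 3 irradiated (red, left) and 3 control tumors (blue, right), with the symbol giving the tumor number. Control tumor 2, the blue square, is the lowest control for CCT, at 1807 TPM and above the irradiated tumors. It is also the lowest control for proliferation markers, at 778 TPM and among the irradiated tumors.

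Control tumor 2 stood apart from the other libraries, on a second principal component with 19.1% of the variance, while the first, with 40.4%, separated the groups. Ribosomal protein genes took 21.4% to 22.3% of all TPM in irradiated tumors, against 27.0% in control tumor 2 and 20.5% and 19.8% in the other controls. Mitochondrial genes took 11.68%, 10.58% and 11.44% in irradiated tumors, against 9.24%, 7.58% and 10.55% in controls, without overlap. After mitochondrial and ribosomal protein genes were taken out and TPM rescaled, CCT6A fell by 0.69 on the log2 scale (limma adjusted p = 0.0318), and 1 of the 8 subunits passed as before. Between 13833 and 13951 genes reached 1 TPM in irradiated tumors and 13392 to 14218 in controls. The markers of the cell line were present in every tumor, from EGFR at 39.2 TPM or more to VIM at 3148 TPM or more, and 0 of the 7 passed the test. VIM (-0.46), CD44 (-0.44) and AXL (-0.53) were lower in irradiated tumors without overlap, with log2 fold changes near those of the subunits, and 3 of the 7 had an unadjusted p under 0.05. Over all tested genes 15.0% were lower without overlap, and 11.5% were lower at an unadjusted p under 0.05. EGFR (-0.26), CAV1 (-0.02), KRT18 (0.08) and KRT8 (0.21) had overlapping groups. Of 5 markers held to be absent from the line, ESR1, PGR and CDH1 were at 0.32 TPM or less, but EPCAM was at 2.90 to 5.10 TPM and GATA3 at 1.91 to 4.30 TPM. Markers of leukocytes and endothelium summed to 193, 139.8 and 104 TPM in irradiated tumors, against 105, 82.4 and 101 TPM in controls, most of it CD68, with PTPRC at 0.30 TPM or less.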

How the data were processed

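RNA libraries of 6 tumors, 3 irradiated and 3 control, were prepared from extracted total RNA using a TruSeq kit of Illumina, per the labels' protocols. The authors deposited 1 table of TPM per gene and tumor, to 2 decimals, and hg38, RSEM, StringTie and HISAT2 were used per the submitters' processing notes, which give no versions or order here. Which annotation release was used, whether strand was, and how mouse reads were handled is not given in the sources used here. TPM keeps no depth, so no count test or counting interval was possible.

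The groups were set against each other in limma 3.58.1 and R 4.3.3 (eBayes with trend) on log2(TPM + 1), for the 14140 genes averaging 1 TPM or more. Fold changes on this scale understate low genes. The test was two-sided with Benjamini-Hochberg adjustment over all tested genes at 0.05, and group was the only term. It was also run on simulated data, in which genes varied independently and the changes were larger than those of the subunits. That run therefore does not bear on changes of the size seen here. Adjusted p-values of genes are limma's. The subunits and gene lists were chosen with earlier results of these data known, so lists are described by counts and medians only.

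Text names all subunits, every called member of a partner list, otherwise up to 4 members with the smallest p, MKI67 and the 5 genes most like the complex. ACTB, ACTA1, ACTC1, HSPA1B, HSP90AB1, HSPD1, TUBA1B, CDC20, UXT, CCT6B, CCT8L2, ACAT2, COMMD1 and the cell type markers were named after their values were seen. Coordinates, overlaps and transcript sequences came from GENCODE 29 (GRCh38, the assembly of hg38), which need not be the authors' release, and promoters from RefSeq. Alignment used Biopython 1.88. Alternatives were other pseudocounts, filters, scalings, variance models and weights, a replicate block, pseudogenes added to their parents, and each tumor left out in turn.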

Additional observations from a re-analysis of the deposited data

How the results depend on the processing

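All 144 log2 fold changes of the 8 subunits under 18 alternatives were below 0. Alternatives that changed only the filter or variance model, and the replicate block, leave the fold changes unmoved by construction. Their values repeat those of the main fit and add nothing to this count. With no filter on low values, without trend and with the replicate block, 0 subunits fell, and CCT6A had the same log2 fold change of -0.73 with limma adjusted p of 0.0912, 0.0836 and 0.0951. With sample weights 5 subunits fell, since TCP1 (-0.64), CCT4 (-0.55), CCT5 (-0.63) and CCT8 (-0.59) passed too, where 4.51% of all tested genes fell. Of the partner and client lists 5 genes fell, where 1.61% of all tested genes did. With no filter 2 fell, ACTG2 and HSPE1, where 0.213% of all tested genes did. With sample weights 8 fell, where 4.51% of all tested genes did. There 1, TUBB4A, rose, and the share of all tested genes that rose in that setting was not taken. Leaving out each tumor in turn gave 0 to 3 subunits and 2 to 5 partner or client genes that fell. Of all tested genes 0.475% fell without irradiated tumor 1, 0.800% without irradiated tumor 2 and 3.95% without control tumor 2. For the other tumors that share was not taken. Without single tumors the log2 fold changes were -0.82 to -0.65 for CCT6A, -0.75 to -0.40 for TCP1 and -0.73 to -0.46 for CCT5. The log2 ratio of the summed subunits was -0.455, ranging from -0.56 to -0.35 without single tumors. With other scalings it ranged from -0.42 to -0.40, a smaller difference. With pseudogenes added to their parents it was again -0.455. Over all genes 421 were called, against 133 with no filter, 279 without trend, 185 with the replicate block, 1064 with sample weights and 127 to 791 without single tumors. The replicate numbers showed no pairing, since deviations from the group means correlated at -0.043, -0.046 and -0.059 between tumors of the same number. Depth is not known, and whether differences of the size of CCT3 and CCT7 could be detected here was not tested.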
